A study of Danio rerio with 4 samples.

Results

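The melanin synthesis genes are 10 zebrafish genes that build the brown-black pigment melanin or the organelle that holds it, and they were taken by their symbols from the 25432 genes in the files. All 10 were found, each as a single entry. Expression was measured by droplet single-cell RNA sequencing of dissected trunks at 3 days post-fertilisation, in 4 libraries, 2 from WT and 2 from flt1 mutant fish. The gene flt1 encodes a decoy receptor that binds Vegf, a vessel growth factor. The study's methods describe the alleles ka604 and ka602 of flt1, and the labels do not say which of them the mutant libraries carried. Heads were removed before the cells were dissociated, by a procedure that the study describes for pools of embryos. The strains AB and TL served for outcrossing in the study, and the labels give neither the strain of these WT embryos nor the number pooled in a trunk library. What was counted are unique molecular identifiers (UMIs), each standing for a captured transcript molecule. Levels are given as CPM, counts per 1000000, the UMIs of a gene scaled to that total of UMIs in the cells summed.

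Zebrafish trunks carry black melanophores, yellow xanthophores and silvery iridophores, all of which derive from the neural crest. Melanin is made from tyrosine inside melanosomes, organelles of the melanophore that start from a striated protein scaffold and are filled with pigment as transporters set their ion content and acidity. The retinal pigment epithelium of the eye makes melanin with many of the same genes but does not come from the neural crest.

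The members cover each step of this process. Mitfa (ENSDARG00000003732) is the transcription factor needed for melanophore fate. Tyr, tyrosinase (ENSDARG00000039077), catalyses the rate-limiting oxidation of tyrosine. Dct (ENSDARG00000006008) and the tyrosinase-related paralogues tyrp1a (ENSDARG00000029204) and tyrp1b (ENSDARG00000056151) encode enzymes of the later steps or stabilise the enzyme complex. Pmela (ENSDARG00000091298) forms the amyloid scaffold of the melanosome. Slc45a2 (ENSDARG00000002593), oca2 (ENSDARG00000061303) and slc24a5 (ENSDARG00000024771) encode membrane transporters, whose loss leaves fish or people with pale pigment. Gpr143 (ENSDARG00000034572) encodes a receptor of the melanosome membrane that is known in mammals from ocular albinism.

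The 4 libraries held 32486 barcodes called as cells, of which 19611 were retained, from 3042 to 6688 in a library. Median depth of the retained cells ranged from 779 UMIs in flt1 mutant replicate 2 to 8033 in WT replicate 1. Cells were grouped into 28 clusters without using the 10 members, and 20 clusters took a name in 19 classes from markers that did not include them. Between 10 and 25 barcode sequences were shared by any pair of libraries, and none of them lay in melanophore-like cells of both. Replicates are separate libraries by their labels, and no label says whether they came from separate clutches, so p-values measure the spread between these libraries only.

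The melanophore-like class was a single cluster of 232 cells, led by zgc:91968, mtbl, mlpha, tspan36, tmem243a and tfap2e. WT replicates 1 and 2 gave 23 and 58 of these cells, and flt1 mutant replicates 1 and 2 gave 75 and 76. The median depth was 1115.5 UMIs a cell, and the summed depth of the class ran from 49784 UMIs in WT replicate 1 to 343259 in WT replicate 2. Of the 15 melanophore markers in the files, 14 had a UMI in the class, as did all 8 fast muscle and all 8 periderm markers. The melanophore list summed to between 7653 and 9500 CPM in the 4 libraries and the fast muscle list to between 12189 and 31676 CPM. The 14 melanophore markers were each higher in the class than in other retained cells, some on few UMIs, such as rab38c with 3. Each fast muscle and periderm marker was lower. Among 9 markers of retinal pigment epithelium, rpe65a, rlbp1b, stra6, rdh5, lrata, otx2b and best1 had no UMI in it, and the list summed to between 13.9 and 20.4 CPM in the 4 libraries.

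Member UMIs were concentrated in these cells. Of 64341 member UMIs in retained cells, 57125 (88.8%) lay in the melanophore-like class, which made up between 0.756% and 1.74% of the cells of a library. The share was 87.4% in WT replicate 1 and 85.3% in WT replicate 2. It was 90.7% in flt1 mutant replicate 1 and 95.5% in flt1 mutant replicate 2. The genotypes did not overlap in this measure, and 2 against 2 libraries cannot reach an exact permutation p below 0.33. The lowest value, in WT replicate 2, was measured with 6 cells outside the class that held 3698 member UMIs. Among named classes alone the shares were 89.6% and 95.7% in WT and 92.2% and 96.7% in the mutant, and the genotypes overlapped.

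The order of the members within melanophore-like cells was led by tyrp1b and pmela. Tyrp1b gave 24653 UMIs, 43.2% of all member UMIs of the class, and pmela gave 16575 UMIs, 29.0%. Dct followed with 8965 UMIs and 15.7%. These are 3′ counts, which do not scale with transcript length, and capture can still differ between genes, so the order is one of UMIs. Slc45a2 (2750 UMIs), tyrp1a (2032), gpr143 (1039) and mitfa (673) were intermediate. Tyr, the enzyme of the rate-limiting step, gave 204 UMIs, slc24a5 gave 185 and oca2 gave 49. The order was therefore headed by tyrp1b, pmela and dct, the paralogue tyrp1a stood below slc45a2, and tyrosinase itself was among the 3 lowest members.

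**Figure D1:**
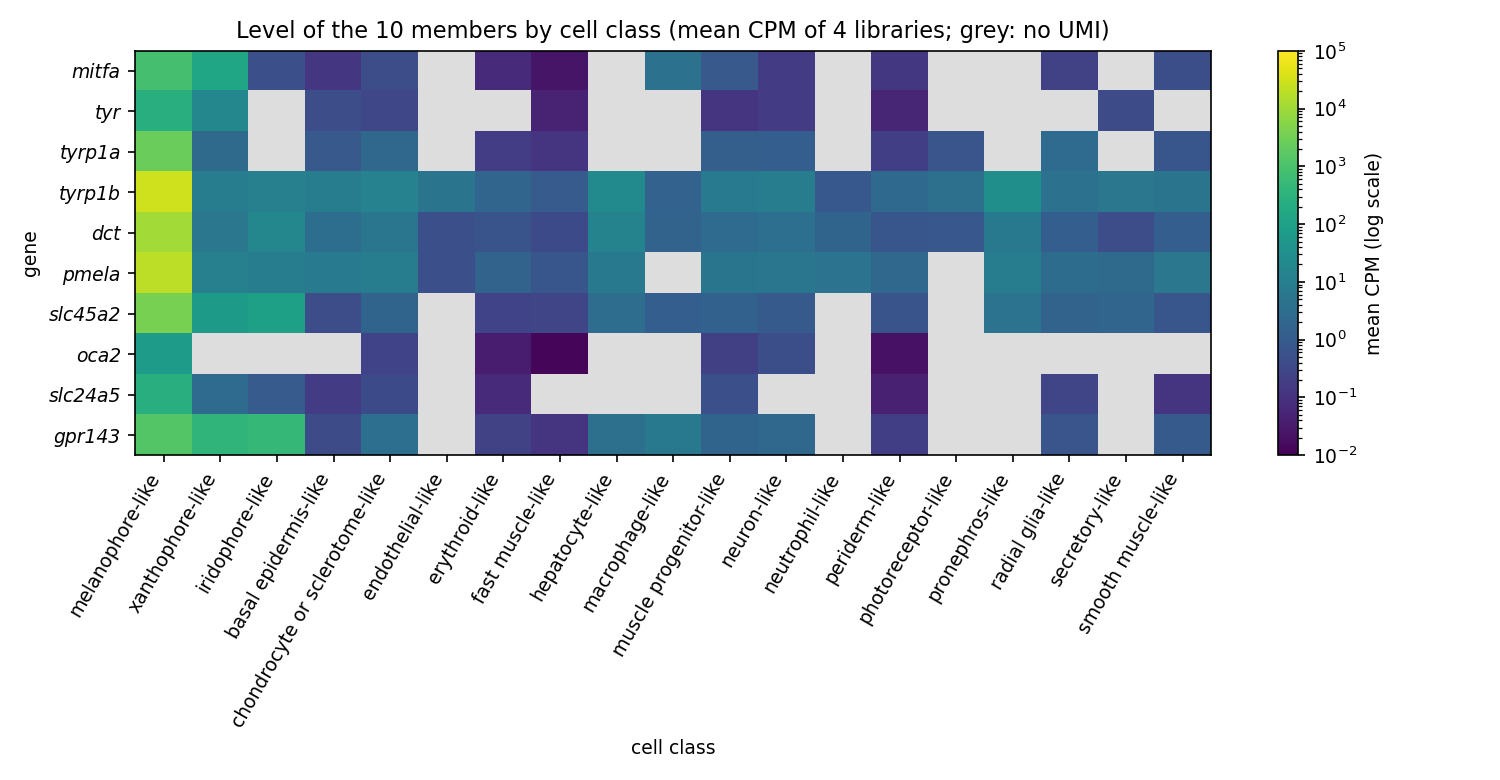
Mean level of each member (rows) in each named cell class (columns) over the 4 libraries, as CPM of the UMIs summed over the cells of a class, on a log colour scale, with grey where no UMI was found. Every member was highest in the melanophore-like class, from 67.7 CPM for oca2 to 30809 CPM for tyrp1b, and gpr143, mitfa and slc45a2 were the members above 50 CPM in another class.

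Of the 232 cells, 201 had UMIs of tyrp1b, dct and pmela together, and 1 had no member UMI at all. Tyrp1b was detected in 97.8% of the cells, pmela in 96.1% and dct in 88.8%. Mitfa was detected in 36.6% of the cells, with an exact Clopper-Pearson interval of 30.4% to 43.2%, tyr in 31.5% (25.5% to 37.9%) and oca2 in 14.2%. When the 61 cells of at least 2000 UMIs were thinned to that depth, the shares became 60.7% for mitfa, 50.8% for tyr, 47.5% for slc24a5 and 11.5% for oca2, and 100% for tyrp1b, pmela, dct and slc45a2. The intervals cover counting error only, since cells of a library share their source. Fast muscle-like cells, which should lack these genes, had a UMI of tyrp1b in 5.56% and of mitfa in 0.214% of cells at a median depth of 81491 UMIs. Neuron-like cells had them in 3.42% and 0.0795% at a median of 3326 UMIs, far below the melanophore-like shares in spite of greater depth.

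Depth differed widely between melanophore-like cells, and so did their weight in every sum. The 18 cells with over 10000 UMIs held 38760 member UMIs, 67.9% of those in the class. There were 11 of them in WT replicate 2, where they held 84.7% of the member UMIs of the class, and 5 in flt1 mutant replicate 2, where they held 65.0%. WT replicate 1 and flt1 mutant replicate 1 had 1 such cell each, with 25.5% and 21.6% of the member UMIs. The summed levels of WT replicate 2 and flt1 mutant replicate 2 thus describe a few deep cells, and those of the other libraries mostly shallow ones. No melanophore-like cell was among the 8% of cells with the highest doublet scores.

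**Figure D2:**
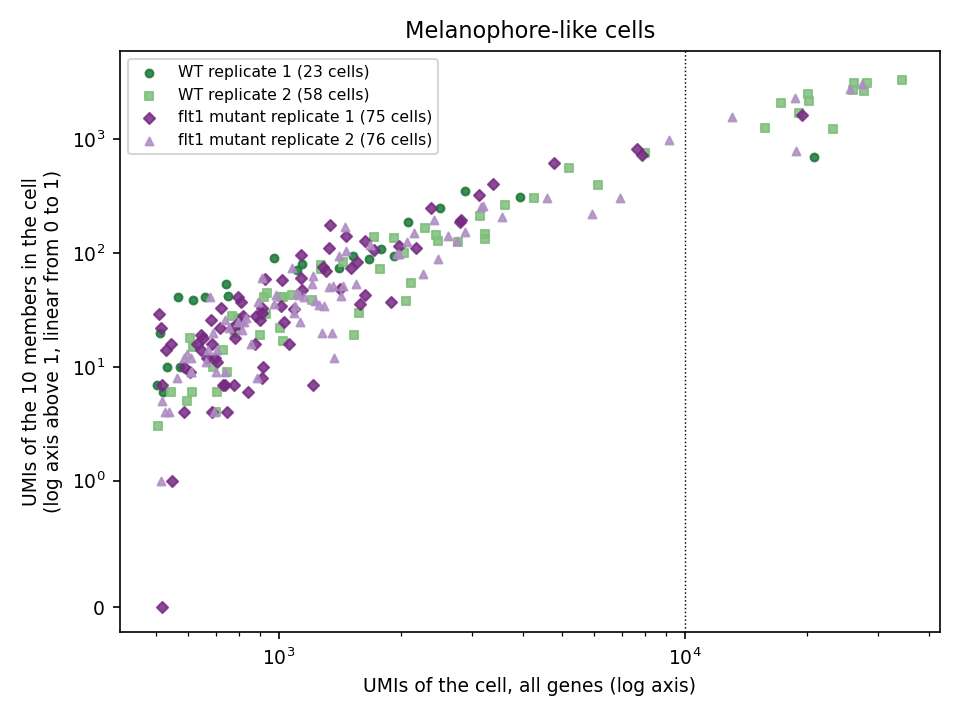
UMIs of the 10 members (y axis, log above 1 and linear from 0 to 1) against UMIs of all genes (x axis, log) in each of the 232 melanophore-like cells, with the library given by colour and shape and a dotted line at 10000 UMIs. The 18 cells right of the line include 11 of WT replicate 2 and hold 67.9% of the member UMIs of the class.

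All 10 members were called higher in melanophore-like cells than in all other retained cells. Calls are at an adjusted p under 0.05 in edgeR, and the background share of 14754 genes tested was 7.65% called higher and 25.2% lower. The log2 difference was 11.55 (SE 0.28) for tyrp1b, 11.43 (SE 0.28) for pmela, 11.38 (SE 0.28) for dct and 10.78 (SE 0.29) for tyrp1a. It was 10.10 (SE 0.28) for slc45a2, 9.62 (SE 0.33) for slc24a5, 9.33 (SE 0.32) for tyr, 9.21 (SE 0.49) for oca2 and 9.11 (SE 0.28) for mitfa. Gpr143 had the smallest difference, 7.30 (SE 0.25). The median over the 10 members was 9.86, against -0.9996 over all genes tested. The cells had been grouped by other genes of the same cells, so the sizes describe the class and the calls are no independent test of it. With library totals in place of trimmed mean of M-values (TMM) scaling, the median of all genes moved by 0.71 here, by 0.37 against xanthophore-like cells and by -0.30 against iridophore-like cells, and no member changed direction. The split of calls moved with it, from 1129 genes higher and 3716 lower to 2098 and 1911 in this comparison. It moved from 206 higher and 265 lower to 446 and 163 against xanthophore-like cells, and from 449 and 455 to 339 and 645 against iridophore-like cells.

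Gpr143 was the member most widely shared among pigment cells. In melanophore-like cells WT replicates 1 and 2 had 1065 and 1698 CPM of it, whereas flt1 mutant replicates 1 and 2 had 1287 and 1162 CPM. In iridophore-like cells (102 cells) it was 444, 455, 457 and 454 CPM in the same order, a spread of 5.74 CPM (SD, n = 4). In xanthophore-like cells (348 cells) it was 486, 289, 447 and 337 CPM. Melanophore-like cells were above both other classes in every library, and the iridophore-like values lay inside the range of the xanthophore-like ones, so the order of these 2 classes was not resolved. The log2 difference of melanophore-like cells was 1.41 (SE 0.22, edgeR adjusted p = 0.000494) against xanthophore-like and 1.77 (SE 0.19, adjusted p = 2.96e-05) against iridophore-like cells. Gpr143 was detected in 35.3% of xanthophore-like cells at a median of 1085.5 UMIs and in 51 of 102 iridophore-like cells at a median of 2691 UMIs, against 1.28% of fast muscle-like and 0.715% of neuron-like cells. Thinned to 2000 UMIs, the shares were 95.1% in melanophore-like, 58.0% in xanthophore-like and 53.7% in iridophore-like cells.

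Mitfa was shared with xanthophore-like cells and nearly absent from iridophore-like cells. Its level in melanophore-like cells was 904 and 1119 CPM in WT and 457 and 880 CPM in the mutant, and in xanthophore-like cells 159 and 112 CPM in WT and 125 and 118 CPM in the mutant. The lowest melanophore-like library, flt1 mutant replicate 1, was still above the highest xanthophore-like one, and the log2 difference was 2.32 (SE 0.25). Iridophore-like cells gave 1 mitfa UMI against 673, a ratio of 876 per UMI captured with a counting interval from 157 to 34664. Mitfa was detected in 12.9% of xanthophore-like cells (22.7% after thinning) and in 0.214% of fast muscle-like cells.

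Slc45a2 was found at a low level in both other pigment classes. It stood at 3897 and 4382 CPM in WT and 2981 and 3242 CPM in mutant melanophore-like cells. Iridophore-like cells had 79.1 and 187 CPM in WT and 13.1 and 105 CPM in the mutant, and xanthophore-like cells 84.2 and 69.9 CPM in WT and 50.9 and 61.8 CPM in the mutant. The 2 classes overlapped, and the iridophore-like values come from 16, 35, 26 and 25 cells in the 4 libraries. The log2 difference of melanophore-like cells was 5.41 (SE 0.20) against xanthophore-like and 5.54 (SE 0.34) against iridophore-like cells. Slc45a2 was detected in 13.7% of iridophore-like and 9.20% of xanthophore-like cells, against 2.56% of fast muscle-like and 0.397% of neuron-like cells.

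The remaining members gave few UMIs in the other pigment classes. Tyrp1b had 6 UMIs in xanthophore-like and 8 in iridophore-like cells, and was detected in 1.72% and 3.92% of them. Fast muscle-like cells had it in 5.56%, but at a median of 81491 UMIs, against 1085.5 and 2691 in these 2 classes. By mean level tyrp1b was at 9.15 and 10.9 CPM in these 2 classes and at 0.999 CPM in fast muscle-like cells, one of the lowest classes. It was higher than in both in pronephros-like (31.4 CPM on 14 UMIs), hepatocyte-like (21.3 CPM on 6 UMIs) and chondrocyte or sclerotome-like cells (13.0 CPM). Pmela had 8 and 6 UMIs, and slc24a5 had 2 and 2. Tyrp1a had 2 UMIs in xanthophore-like and none in iridophore-like cells, and oca2 had none in either class. With a floor of 3 counts over the pooled class, oca2 was at least 15.2-fold higher than in xanthophore-like and at least 21.3-fold higher than in iridophore-like cells. On the same floor tyrp1a was at least 882-fold and tyr at least 88.5-fold higher than in iridophore-like cells. All 9 members tested were called higher against xanthophore-like cells, where 12.3% of 1672 genes were called higher and 15.8% lower. All 9 tested were also called higher against iridophore-like cells, where 25.1% of 1790 genes were called higher and 25.4% lower. Tyr and tyrp1a had no UMI in iridophore-like cells and mitfa had 1, and tyrp1a and slc24a5 had 2 each in xanthophore-like cells. These members passed the count filter through the melanophore-like sums, so a call could only be higher. The counts of calls are therefore descriptions and no test of the members. Oca2 did not pass the count filter in either comparison. The iridophore-like sums include WT replicate 1 with its 16 cells. Without that library 10 of 10 members tested were called higher, among them oca2, which had no UMI in iridophore-like cells. The share of all genes called in that fit is not given here, and this count too is a description.

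**Figure D3:**
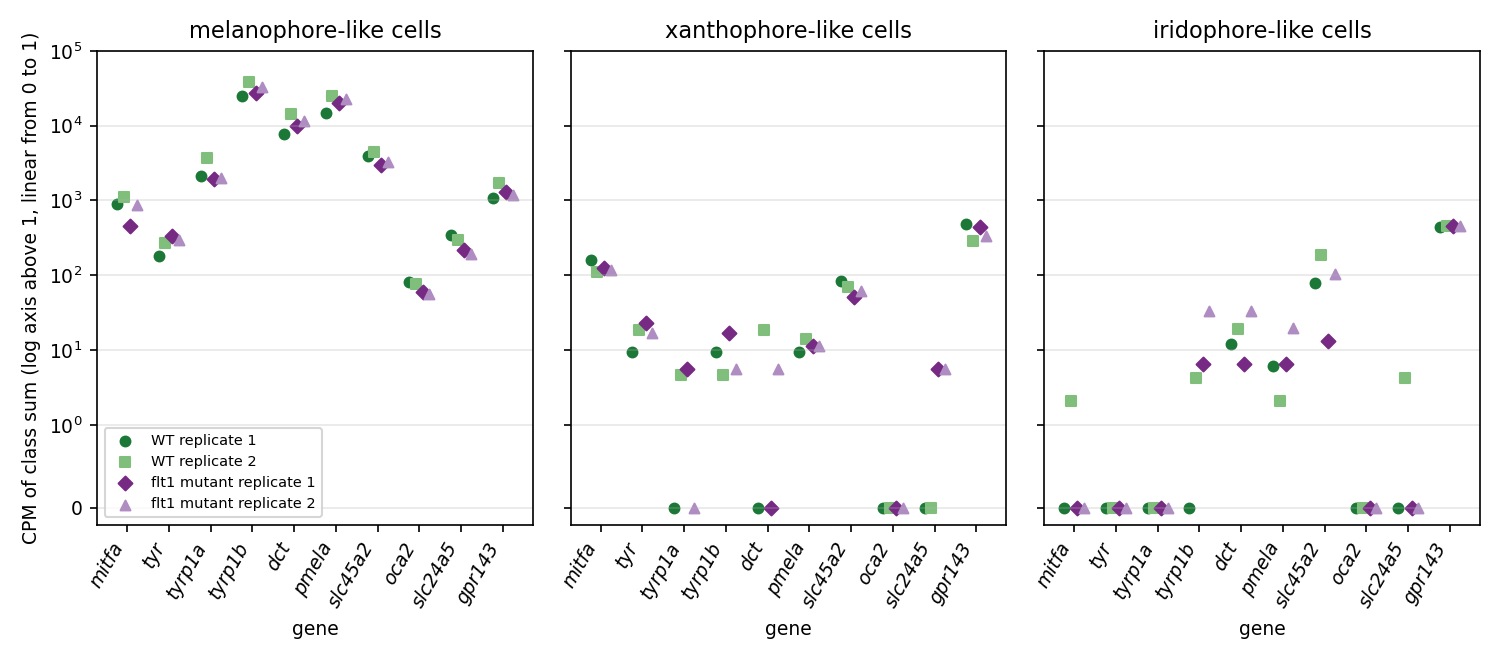
Level of each member (x axis) as CPM (y axis, log above 1 and linear from 0 to 1) in the 3 pigment cell classes, with 1 point per library. Gpr143 lay between 289 and 486 CPM in both xanthophore-like and iridophore-like cells, mitfa was above 100 CPM in xanthophore-like cells and at most 2.1 CPM in iridophore-like cells, and tyr, tyrp1a and oca2 were at 0 in all iridophore-like libraries.

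The proportions of the members also differed between the pigment classes, and the tyrp1b and pmela shares of the non-pigment classes were nearer to melanophore-like cells. In 8 named classes other than pigment cells with at least 100 member UMIs, tyrp1b made up between 32.3% and 40.9% of the member UMIs and pmela between 22% and 39.5%, near their 43.2% and 29.0% in melanophore-like cells. Single cells weighed on some of these sums, with 237 of 313 member UMIs of basal epidermis-like cells in 1 cell, 119 of 216 in 1 muscle progenitor-like cell and 181 of 420 in 2 chondrocyte or sclerotome-like cells. Without these and a periderm-like cell of 61 member UMIs, left out after the values were seen, tyrp1b ranged from 28.5% to 40.4% and pmela from 18.6% to 39.5% over the 8 classes. The gpr143 share was above its 1.82% in melanophore-like cells in all 8 classes. It ranged from 1.92% to 10.1%, or from 3.56% to 15.5% without those cells. In xanthophore-like cells tyrp1b was 1.44% of 416 member UMIs, while gpr143 was 60.8% and mitfa 20.2%. In iridophore-like cells tyrp1b was 1.37% of 583 member UMIs, while gpr143 was 73.6% and slc45a2 20.6%. The tyrp1b and pmela shares of these 2 pigment classes were thus below those of all 8 non-pigment classes. By mean level they were not lower. Tyrp1b was at 9.15 CPM in xanthophore-like and 10.9 CPM in iridophore-like cells, against 0.999 to 13.0 CPM in the 8 classes. Pmela was at 11.5 and 8.61 CPM, against 0.770 to 9.11 CPM. The low shares of these 2 genes thus stand beside more gpr143, mitfa or slc45a2 in the same totals.

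Tyr in xanthophore-like cells and dct in iridophore-like cells had smaller values that also differed from the shares in melanophore-like cells. By mean level both genes were far below melanophore-like cells. Tyr was at 16.9 CPM in xanthophore-like against 269 CPM in melanophore-like cells, and dct at 17.6 CPM in iridophore-like against 10833 CPM in melanophore-like cells. Tyr was 2.88% of the member UMIs in xanthophore-like cells (12 UMIs, exact interval 1.5% to 4.99%), against 0.357% in melanophore-like cells and at most 1.59% in the 8 non-pigment classes, or 2.63% without the single cells named above. It was detected in 3.16% of xanthophore-like cells against 0.214% of fast muscle-like and 0.0795% of neuron-like cells, but in 1 of 88 cells after thinning. Dct gave 17 UMIs in iridophore-like cells against 8 of tyrp1b, whereas melanophore-like cells had fewer dct than tyrp1b UMIs. Dct was detected in 11.8% of iridophore-like cells (7.41% after thinning), against 2.56% of fast muscle-like and 1.19% of neuron-like cells. By level, hepatocyte-like cells overlapped them, with libraries from 0 to 24.5 CPM of dct (4 UMIs) against 6.53 to 32.9 CPM in iridophore-like cells.

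**Figure D4:**
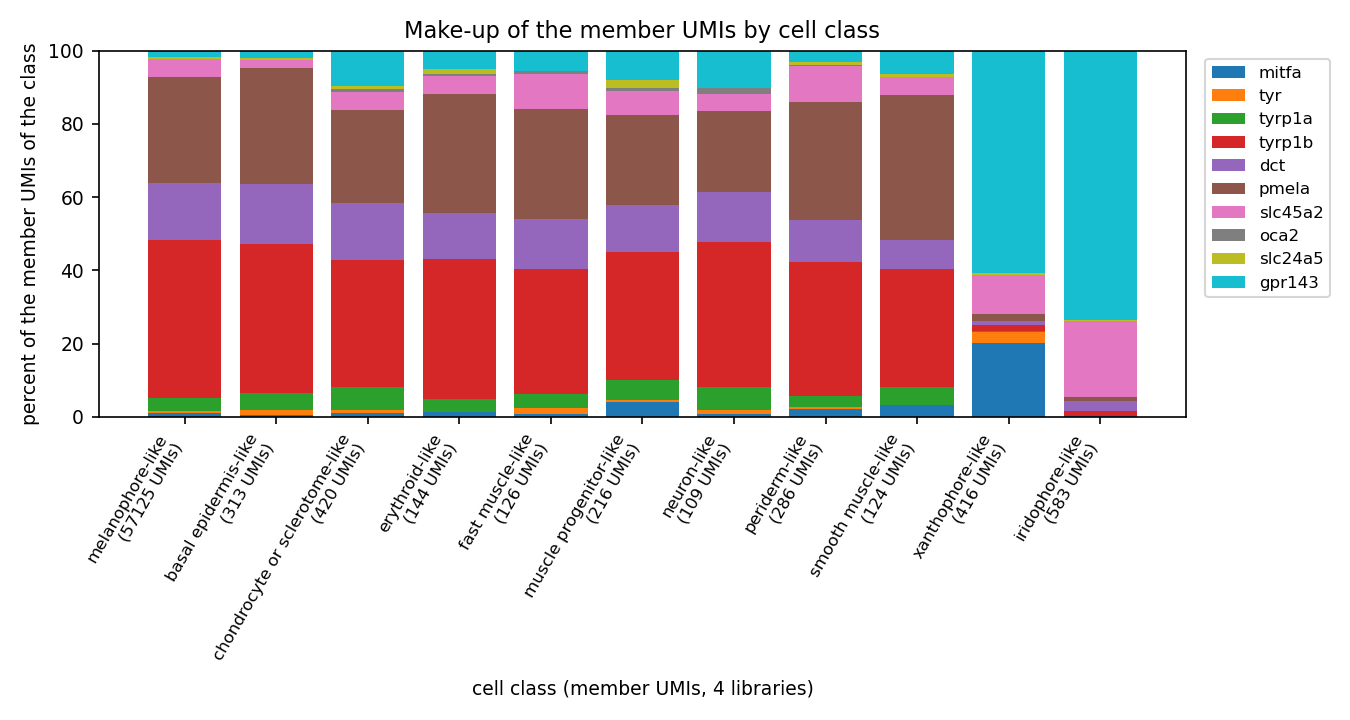
Make-up of the member UMIs (y axis, percent of the UMIs of the 10 members, stacked by gene) in melanophore-like cells, 8 non-pigment classes with at least 100 member UMIs, xanthophore-like cells and iridophore-like cells, with the number of member UMIs under each bar. Tyrp1b and pmela dominate every bar except the last 2, where gpr143 makes up 60.8% and 73.6%.

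Outside the melanophore-like class, 9 cells with at least 50 member UMIs and over 10 dct UMIs held 3987 of 7216 member UMIs, and this limit was chosen after the values were seen. Of these cells 6 were in WT replicate 2, with 3698 UMIs. Among them, 2 cells in an unnamed cluster of that library, with 1278 and 834 member UMIs, carried the retinal pigment epithelium genes rpe65a (15 and 18 UMIs) and rlbp1b (67 and 55 UMIs). They had no UMI of tfap2e, zgc:91968 or mlpha. In these 2 cells tyrp1b gave 703 and 413 UMIs, dct 274 and 172 and pmela 189 and 157, so dct exceeded pmela, whereas pmela exceeded dct in melanophore-like cells of every library. Retained cells with both rpe65a and rlbp1b numbered 4, all in WT replicate 2, although the heads had been removed. Their 2112 member UMIs all lay in the 2 cells just described. Another cell of the same cluster and library, with 481 member UMIs, had neither of these genes but 12 UMIs of rgrb. It also had no UMI of tfap2e, zgc:91968 or mlpha, and its dct (129 UMIs) exceeded its pmela (84).

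The comparison of genotypes first used the whole trunk, the sum of all retained cells of a library. Such a sum cannot tell fewer pigment cells from less RNA per pigment cell. Tyrp1b stood at 35.9 CPM in WT replicate 1, 248 in WT replicate 2, 76.8 in flt1 mutant replicate 1 and 184 in flt1 mutant replicate 2. Pmela stood at 22.2 and 156 CPM in WT and at 56.9 and 125 CPM in the mutant. Mitfa stood at 2.07 and 7.30 CPM in WT and at 2.11 and 5.56 CPM in the mutant. WT replicate 1 was lowest and WT replicate 2 highest for all 3 genes, so both mutant libraries lay between the WT libraries.

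None of the 10 members was called between genotypes in the whole trunk, where 0.466% of 18036 genes were called, and none had an unadjusted p under 0.05, as 2823 of all genes had. The log2 fold change of flt1 mutant over WT ran from -0.70 (SE 0.88) for tyrp1a to 0.28 (SE 0.79) for tyr, with a median of -0.34 against -0.01 over all genes tested. The standard errors, from 0.54 for gpr143 to 1.00 for dct, were larger than the fold change of each member. Which WT library was kept set the direction. Without WT replicate 1 all 10 folds were negative, from -1.50 for tyrp1a to -0.46 for tyr. Without WT replicate 2 all 10 were positive, from 0.75 for gpr143 to 2.29 for tyr, with no call in either case. In WT replicate 2 the melanophore-like class made up 0.555% of all retained UMIs, against 0.139% in WT replicate 1, 0.262% in flt1 mutant replicate 1 and 0.543% in flt1 mutant replicate 2.

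The share of melanophore-like cells was higher in both mutant libraries. It was 0.756% (exact interval 0.480% to 1.13%) and 0.867% (0.659% to 1.12%) in WT replicates 1 and 2. It was 1.74% (1.37% to 2.18%) and 1.36% (1.08% to 1.71%) in flt1 mutant replicates 1 and 2. The means were 0.812% ± 0.0786 (SD, n = 2) and 1.55% ± 0.265 (SD, n = 2), a difference of 0.740 percentage points with an exact two-sided permutation p = 0.33, the smallest this design allows. Among cells of at least 1000 UMIs the shares were 0.466% and 0.963% in WT and 1.17% and 1.79% in the mutant, still without overlap. Median depth of the retained cells ran from 779 to 8033 UMIs across the same libraries and its part in the shares was not tested. Cells with retinal genes were fewer in both mutant libraries and uneven within each genotype. They formed a photoreceptor-like cluster led by rho and an unnamed cluster led by gnb3a, with vsx1 and crx among its leading genes. Together these clusters held 91 and 87 cells in WT and 1 and 23 in the mutant. As shares of retained cells these were 2.99% and 1.30% in WT and 0.0232% and 0.413% in the mutant. With both clusters left out, a choice made after the values were seen, the melanophore-like shares were 0.779% and 0.879% in WT and 1.74% and 1.37% in the mutant.

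Within melanophore-like cells the levels of the members were compared directly, which removes the number of cells. Tyrp1a was at 2149 and 3694 CPM in WT and at 1956 and 1973 CPM in the mutant, so both mutant libraries were below both WT libraries. Slc45a2, slc24a5 and oca2 were arranged alike. Slc24a5 was at 341 and 294 CPM in WT and at 220 and 190 CPM in the mutant, and oca2 at 80.3 and 75.7 CPM against 59.3 and 55.6 CPM. The oca2 values rest on 4 and 26 UMIs in WT and on 7 and 12 in the mutant. Tyr was arranged the other way, with 181 and 268 CPM in WT and 330 and 296 CPM in the mutant, and its WT values rest on 9 and 92 UMIs. Mitfa also had both mutant libraries below both WT libraries. How many of all genes tested were arranged without overlap of the genotypes was not counted, so these arrangements are descriptions. Tyrp1b was at 24767 and 38065 CPM in WT and at 27485 and 32917 CPM in the mutant. Dct was at 7693 and 14488 CPM in WT and at 9797 and 11355 CPM in the mutant. Pmela was at 14623 and 25089 CPM in WT and at 20195 and 22461 CPM in the mutant. For these 3 most abundant members, and for gpr143, the mutant libraries lay between the WT libraries.

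No member was called within melanophore-like cells, where 0.394% of 1775 genes were called, and no member had an unadjusted p under 0.05, as 124 of all genes had. The log2 fold change was -0.60 (SE 0.29, edgeR adjusted p = 0.72) for tyrp1a, -0.61 (SE 0.34) for mitfa and -0.62 (SE 0.38) for slc24a5. It was -0.43 (SE 0.26) for slc45a2, -0.42 (SE 0.53) for oca2, -0.21 (SE 0.30) for gpr143 and 0.38 (SE 0.37) for tyr. Tyrp1b (-0.07, SE 0.28), dct (-0.08, SE 0.29) and pmela (0.09, SE 0.28) had the fold changes nearest to 0. The median was -0.32, against 0.02 over all genes tested. Without WT replicate 1, the library of 23 cells, the log2 fold changes of tyrp1a, tyrp1b, dct and pmela were -0.94, -0.36, -0.48 and -0.26. In that fit WT was WT replicate 2 alone. This lone library is assumed to vary like the mutant pair, and its sum rests on 11 deep cells, so calls from the fit are not weighed. Without WT replicate 2, tyrp1b, dct, pmela, gpr143 and tyr had positive fold changes. In that fit WT was WT replicate 1 alone, with its 23 cells and the shallowest sum of the class.

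**Figure D5:**
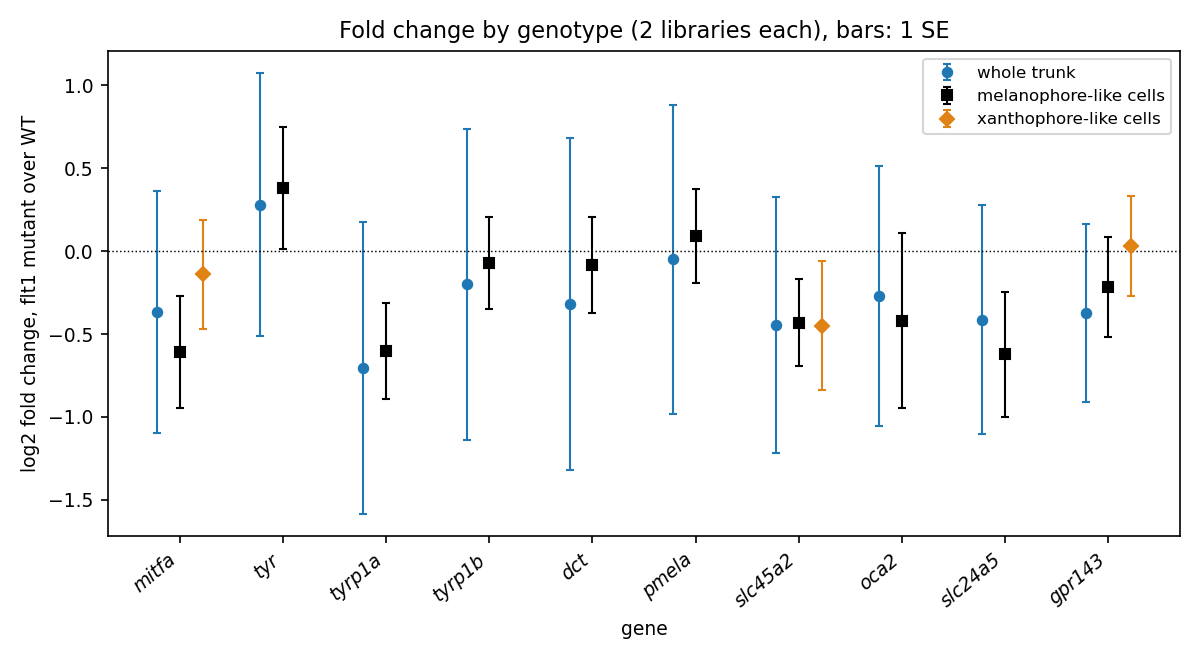
Log2 fold change of flt1 mutant over WT (y axis) for each member (x axis) in the whole trunk, in melanophore-like cells and, for the 3 members that passed the filter, in xanthophore-like cells, with bars of 1 SE from 2 libraries per genotype. No fold change was called, and the values ran from -0.70 to 0.38.

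A count that weights every cell alike gave another picture of the class. Each melanophore-like cell was thinned to 500 UMIs, and the 10 members together then stood at 57565 and 49414 CPM in the WT libraries and at 42853 and 43079 CPM in the mutant ones. The median share of a cell's UMIs taken by the members was 6.21% and 4.48% in WT and 3.12% and 3.54% in the mutant. Both mutant libraries were below both WT libraries in these measures, for which 2 against 2 libraries cannot reach an exact permutation p below 0.33. Without equal weights the 10 members summed to 55701 and 89172 CPM in WT and 64767 and 74532 CPM in the mutant, and the mutant libraries lay between the WT libraries. In the thinned sums 7 members passed the filter and none was called. The share of all genes called in those sums is not given here, so this count does not set the members apart. Fast muscle markers in the melanophore-like cells, 8 genes of another cell type, summed to 12916 and 12189 CPM in WT and to 31676 and 21289 CPM in the mutant, and their part in these values was not tested.

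In xanthophore-like cells 3 members could be tested between genotypes and none was called. The log2 fold change was -0.14 (SE 0.33) for mitfa, -0.45 (SE 0.39) for slc45a2 and 0.03 (SE 0.30) for gpr143. Their libraries overlapped except for slc45a2, which was lower in both mutant libraries. How many of all genes were arranged like slc45a2 was not counted. No gene of 1646 was called there by edgeR (0% called), while 140 had an unadjusted p under 0.05 and DESeq2 called 4. Iridophore-like cells were not tested by genotype, because WT replicate 1 had 16 of them, under the minimum of 20.

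Other genes of the melanosome were followed through lists that did not include the members. These genes took part in the clustering, and some named the classes, so the counts are descriptions. Of 42 genes for melanosome formation and transport in the files, 36 were tested against all other cells. Of these, 29 were called higher and 2 lower, beside 7.65% and 25.2% of all genes, with a median log2 difference of 2.25 against -0.9996 over all genes tested. Mlpha, tspan10, tspan36 and rab32a had the smallest p-values among those higher. Mlpha, a linker between melanosomes and the actin motor, stood at 1386 and 1113 CPM in WT and 1092 and 1037 CPM in mutant melanophore-like cells. The 2 lower genes were ap3m1, an adaptor subunit, and gpnmb, a relative of pmela. Gpnmb had no UMI in melanophore-like cells of any library and 1310 CPM ± 495 (SD, n = 4) in iridophore-like cells.

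The proton pump of acidic organelles sets melanosome acidity among other tasks. Of its 21 genes, 17 were called higher in melanophore-like cells than in all other cells and none lower, where 7.65% of all genes were called higher, and the median was 2.45. Atp6v1ab, atp6v0e1, atp6v0ca and atp6v1g1 had the smallest p-values. Against xanthophore-like cells 8 of 15 tested were called higher and none lower, beside 12.3% higher over all genes. Against iridophore-like cells 10 of 16 were higher and 1, atp6v1e1b, was lower, beside 25.1% higher and 25.4% lower over all genes. Atp6v0ca, a subunit of the membrane ring, was at 864 and 1462 CPM in WT and 1516 and 1236 CPM in mutant melanophore-like cells, above its 168 to 321 CPM in xanthophore-like and 546 to 763 CPM in iridophore-like cells. The 2 other pigment classes and the melanophore-like class did not overlap for this gene.

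Among 20 tested genes of melanophore specification and signalling, 10 were called higher and 2 lower than in all other cells, beside the same 7.65% and 25.2%. The higher ones with the smallest p-values were tfap2e, pcdh10a, kita and sox10, of which tfap2e, pcdh10a and kita were also among the naming markers. Kita is the receptor that melanophores need for survival and migration, and sox10 is the neural crest factor upstream of mitfa. The lower ones were kitlga, a Kit ligand, and lef1, a Wnt effector. Tfap2e was at 743 and 918 CPM in WT and 406 and 926 CPM in the mutant, so that flt1 mutant replicate 1 was lowest for it as for mitfa. Asip2b, a relative of the melanocortin antagonist, was lower in melanophore-like than in xanthophore-like cells, with a log2 difference of -6.58 (SE 0.65) and levels of 219 to 396 CPM in the latter. None of the genes tested from these 3 lists was called between genotypes, whether in the whole trunk or in melanophore-like cells.

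Some xanthophore genes were also present in melanophore-like cells. Gch2, the first enzyme of pteridine synthesis, was at 4017 and 4763 CPM in WT and 4547 and 4474 CPM in mutant melanophore-like cells, and at 25212 to 43193 CPM in xanthophore-like cells. The transporter gene slc22a7a was at 402 to 1037 CPM and at 2888 to 3984 CPM in these classes. In iridophore-like cells gch2 was at 2.1 to 32.9 CPM. Aox5 and xdh, further xanthophore markers, had no UMI in melanophore-like cells.

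The genes most like the members in pattern were ranked by Pearson correlation of log2(CPM + 1) with the mean of the 10 members over 70 sums of 19 classes, which share their libraries. They were si:ch73-389b16.1 (r = 0.929), slc38a11 (0.925), zgc:163014 (0.916), si:dkey-247m21.3 (0.910), zgc:91968 (0.902), mchr2 (0.901), tspan10 (0.893) and mlpha (0.889). Si:ch73-389b16.1 was at 111 to 134 CPM in melanophore-like cells and at most 0.139 CPM in any other class. The gene zgc:91968 was at 3334 to 6020 CPM there and led the cluster. The members themselves, from which that mean was formed, ranged from 0.825 for gpr143 to 0.952 for slc24a5. These values are not to be compared with those of the other genes.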

How the data were processed

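The authors mapped the reads to GRCz11 with Cell Ranger (6.1.1 per the file headers) and deposited UMI counts per gene and barcode, unnormalised. The labels name version 2 of the 3′ chemistry and the study's methods version 3. No sequences or positions are given, because the reference tables at hand describe another assembly, GRCz12tu.

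Cells with over 200 and under 4000 genes and under 5% mitochondrial UMIs were kept, as in the study's methods. Seurat 5.3.0 clustered them from log-normalised counts, with 2000 variable genes (members left out), integration by reciprocal principal components (30 dimensions), 50 components and a resolution of 0.3. SCTransform, which the study used, was not run. A cluster took the class with most markers among its 50 leading genes, given at least 3 detected markers and 1 among the leading 10. Unnamed clusters hold 8239 cells. No doublets were removed for the main values, and Scrublet in scanpy 1.11.5 served an alternative.

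UMIs were summed per library and class and tested with edgeR 4.0.16 (quasi-likelihood, two-sided, TMM, filterByExpr, Benjamini-Hochberg over all genes tested), with genotype as the term, or with library as a block between classes. In the class comparisons TMM factors came from genes with a mean of at least 50 CPM, after a test on simulated data showed biased folds otherwise. That simulation changed 200 genes, as many up as down, whereas 1129 genes were called higher and 3716 lower against all other cells. It therefore does not measure the bias left in the real comparison. A genotype test of a class needed 20 cells in each library, and comparisons between classes used all libraries. Alternatives were DESeq2 1.42.0, library totals, no count filter, replicate block, each library left out, other cell limits and other clusterings. Cells thinned to 500 UMIs, retinal pigment epithelium marker cells or unnamed or photoreceptor-like clusters left out, and a crossed pairing were added after the data were seen.

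All 10 members are named. From each other list, the 4 genes of smallest p in each direction and comparison were eligible for naming, and the 8 genes most like the members are given. The members and lists were chosen with earlier results of these data known. Replicate numbers were checked for pairing by correlating the deviations of same-numbered libraries, and the labels state no link between them.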

Additional observations from a re-analysis of the deposited data

Results flagged for a closer look

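Member UMIs were also present in the barcodes that the cell limits removed, which enter none of the comparisons. These 12875 barcodes held 23198 member UMIs. Of these, 3001 came from WT replicate 1, 5463 from WT replicate 2, 7226 from flt1 mutant replicate 1 and 7508 from flt1 mutant replicate 2. With these added to the retained ones, the limits kept 51.4% and 86.8% of WT member UMIs, by replicate, and 53.9% and 69.2% of mutant ones, whereas they kept between 67.5% and 73.3% of all UMIs. Most of the removed member UMIs, 20611, lay in 42 barcodes with at least 50 of them, and 30 of these barcodes had a UMI of zgc:91968. In 10 of the 42, which held 14030 member UMIs, only the upper limit of 4000 genes was exceeded. With all deposited barcodes in the whole-trunk sums, no member was called between genotypes.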

How the results depend on the processing

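All 10 members stayed called higher in melanophore-like cells than in all other cells under every alternative that tested them, and 9 of 9 did when cells were thinned to 500 UMIs. Against xanthophore-like and iridophore-like cells 9 or 10 were called higher throughout, which members almost without UMIs in those classes could not fail to be. No member was called by genotype under any alternative except without WT replicate 1 in melanophore-like cells, a fit in which WT was a single library. Unless stated, values below are log2 fold changes of flt1 mutant over WT that changed sign, and the cause was not tested. In the whole trunk, library totals gave 0.030 for pmela. All deposited barcodes gave 0.014 for tyrp1b, 0.013 for dct and 0.22 for pmela. Leaving out single libraries gave -1.12 to 1.05 for mitfa, -0.46 to 2.29 for tyr, -1.50 to 1.42 for tyrp1a, -1.03 to 2.02 for tyrp1b, -1.17 to 2.19 for dct, -0.88 to 2.20 for pmela, -1.18 to 1.25 for slc45a2, -0.94 to 1.51 for oca2, -1.09 to 1.13 for slc24a5 and -0.97 to 0.75 for gpr143. In melanophore-like cells it gave -0.36 to 0.19 for tyrp1b, -0.48 to 0.37 for dct, -0.26 to 0.45 for pmela and -0.50 to 0.11 for gpr143. A mitochondrial limit of 10% with no upper gene limit gave 0.11 for tyrp1b, 0.19 for dct and 0.0039 for gpr143 there. Keeping the members in the clustering gave 0.054 for tyrp1b and 0.033 for dct, cells of at least 1000 UMIs gave 0.023 and 0.035, and thinning to 500 UMIs gave -0.11 for pmela. In xanthophore-like cells, no count filter gave 0.023 for mitfa, and leaving out single libraries gave -0.37 to 0.064 for mitfa and -0.29 to 0.39 for gpr143.

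Whether the replicate numbers pair the libraries was not settled. The deviations of same-numbered libraries correlated at r = -0.18 in the whole trunk, 0.046 in melanophore-like and 0.0094 in xanthophore-like cells. These correlations run over all genes tested and do not describe the members apart. In the whole trunk all 10 members were higher in replicate 2 than in replicate 1 of both genotypes. Tyrp1b, for example, was at 35.9 and 248 CPM in WT and at 76.8 and 184 CPM in the mutant. How many of all genes had this order was not counted. Most member UMIs lay in the melanophore-like class, so the 10 members are not separate observations. The share of retained UMIs in that class had the same order, with 0.139% and 0.555% in WT and 0.262% and 0.543% in the mutant. With the replicate number as a block, 0 members were called in the whole trunk and 0 in melanophore-like cells. Of all genes, 41 and 0 were called there, and the whole-trunk folds of tyrp1b, dct and pmela were 0.38, 0.38 and 0.56. The crossed pairing called 0 members and 112 genes, with 0.37, 0.37 and 0.55 for the same members. Without the library block, 10 of 10 members stayed called against all other cells. The genotype test of iridophore-like cells and its alternatives were not run, for want of cells.

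Counts over all genes moved more. In the whole trunk 84 genes were called, 626 by DESeq2, 510 with library totals (230 higher and 280 lower, against 51 and 33), 175 without a count filter, 201 with all deposited barcodes and 3 to 445 without single libraries. In melanophore-like cells 7 were called, 3 by DESeq2, 15 without a filter, 29 with the members in the clustering and 8 to 56 without single libraries. In xanthophore-like cells 0 were called, 4 by DESeq2, 30 without a filter and 12 to 82 without single libraries. Against all other cells 4845 were called, 893 after thinning and 2747 without WT replicate 2. Against xanthophore-like cells 471 were called, 791 without a filter and 286 without flt1 mutant replicate 2. Against iridophore-like cells 904 were called and 1716 without a filter.

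The median detection over the members in melanophore-like cells was 63.1%, and 95.1% when thinned to 2000 UMIs, which keeps only the 61 deeper cells. Depth limits the genotype comparison most in WT replicate 1, where the 23 melanophore-like cells gave 4 UMIs of oca2, 9 of tyr and 17 of slc24a5.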
